A study of Rattus norvegicus with 9 samples.

Results

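Loop of Henle (LOH) nuclei made up 6113 of the 53298 rat kidney nuclei (11.5%) in a data set of single-nucleus ATAC sequencing, snATAC-Seq. Their number was counted in 9 libraries from rats with hypertension caused by deoxycorticosterone acetate (DOCA) and salt, from drug-treated DOCA rats and from Controls. Members were all nuclei that carried the LOH label in the deposited annotation, which assigns each nucleus 1 of 12 cell type labels. In snATAC-Seq a transposase cuts open chromatin and each nucleus receives its own barcode. The values available for the LOH nuclei were the label, the library and the position on the deposited UMAP, a flat map on which nuclei with similar open chromatin lie close together.

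All rats were male Sprague-Dawley animals, and 6 weeks is the age label of every sample. Control rats had sham surgery, sesame oil and tap water. DOCA rats had the left kidney removed, received 50 mg/kg DOCA each week and drank salt water, and every drug group shares DOCA and salt with them. By the methods of the study, Finerenone and Spironolactone rats also had the left kidney removed, and DOCA rats were gavaged daily with vehicle. The labels give uninephrectomy for the Amiloride group too, while those methods do not list that group among those operated. Finerenone and Spironolactone rats received a mineralocorticoid receptor antagonist on top of DOCA, at 10 and 50 mg/kg per day. Amiloride rats received 20 mg/kg per day of a blocker of the epithelial sodium channel on top of DOCA. Rats were killed at more than 1 time in the study, and which time a library belongs to is not given in the sources used here. Control, DOCA, Finerenone and Spironolactone each had 2 libraries, 1 made with a scATAC kit and 1 with a Multiome kit, and Amiloride had a Multiome library alone. Libraries held 1817 to 15235 nuclei. Nothing states that the 2 libraries of a group came from separate rats, so the spread between them may be technical.

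The loop of Henle carries tubular fluid into the renal medulla and back to the cortex. Its thick ascending limb reabsorbs sodium chloride through the cotransporter encoded by Slc12a1, which loop diuretics block, and it secretes uromodulin, the product of Umod. The claudin encoded by Cldn16 lets magnesium and calcium pass between its cells. The limb lies just before the distal convoluted tubule (DCT), a further site of sodium chloride reabsorption. Beyond that follow the principal cells (PC) of the collecting duct, which carry the amiloride-sensitive sodium channel, and the intercalated cells (IC), which handle acid and base. Accessibility at Slc12a1, Umod and Cldn16 was not analysed here, so the LOH label could not be checked against its markers.

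LOH was the most frequent of the 9 labels outside the proximal tubule in 7 of the 9 libraries. It ranked 2 in the Spironolactone scATAC library and 5 in the Amiloride library. Over all libraries, LOH nuclei were 25.5% of the 23996 nuclei outside the proximal tubule, that is, without the labels PCT and PST (convoluted and straight proximal tubule) and iPT (injured proximal tubule). They were 37.0% of the 16534 nuclei labelled LOH, DCT, PC or IC, called the distal nephron nuclei below. These pooled shares weight the libraries by their size, and the largest library, Spironolactone Multiome, gave 2053 of the LOH nuclei.

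As a share of all nuclei, LOH varied between libraries of the same group by as much as between groups. In Control, 101 of 2455 nuclei were LOH in the scATAC library (4.11%) and 838 of 5095 in the Multiome library (16.4%). In DOCA the shares were 8.66% (214 of 2471) and 12.8% (1167 of 9143). In Finerenone they were 8.70% (158 of 1817) and 17.6% (1079 of 6132). The Multiome value was the higher one in each of these groups. Spironolactone libraries had 4.26% (116 of 2721) and 13.5% (2053 of 15235). The Amiloride library had 4.70% LOH nuclei (387 of 8229, exact 95% interval 4.26 to 5.18), which was below the 4 other Multiome libraries (12.8% to 17.6%) and within the range of the 4 scATAC libraries (4.11% to 8.70%). Group means were 10.3% ± 8.72 for Control, 10.7% ± 2.90 for DOCA, 13.1% ± 6.29 for Finerenone and 8.87% ± 6.51 for Spironolactone (SD, n = 2 each), and the ranges of these groups overlapped.

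The kit moved with this share. In limma, a linear model fitted over all 12 labels with group and kit as terms, the log2 odds of being LOH were higher by 1.44 in Multiome than in scATAC libraries (SE 0.40, Benjamini-Hochberg adjusted p = 0.00536), in 4 of 4 groups with both kits. Without either Spironolactone library this call was lost (1.33, adjusted p = 0.0588, limma). With this kit term 25% of labels passed the threshold of 0.05. Proximal labels took 64.5% to 81.2% of nuclei in scATAC and 41.3% to 59.2% in Multiome libraries, and every nucleus added to one label lowers the share of the others. Whether a kidney held fewer LOH cells or fewer of its nuclei were recovered cannot be told apart from shares. For that reason LOH was also set against smaller denominators. The kit difference was 0.55 (SE 0.32, adjusted p = 0.172, limma) among nuclei outside the proximal tubule, where 11.1% of labels passed. It was 0.29 (SE 0.25, adjusted p = 0.277, limma) among distal nephron nuclei, where 0% passed by the adjusted p and 0 labels had an unadjusted p under 0.05.

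**Figure D1:**
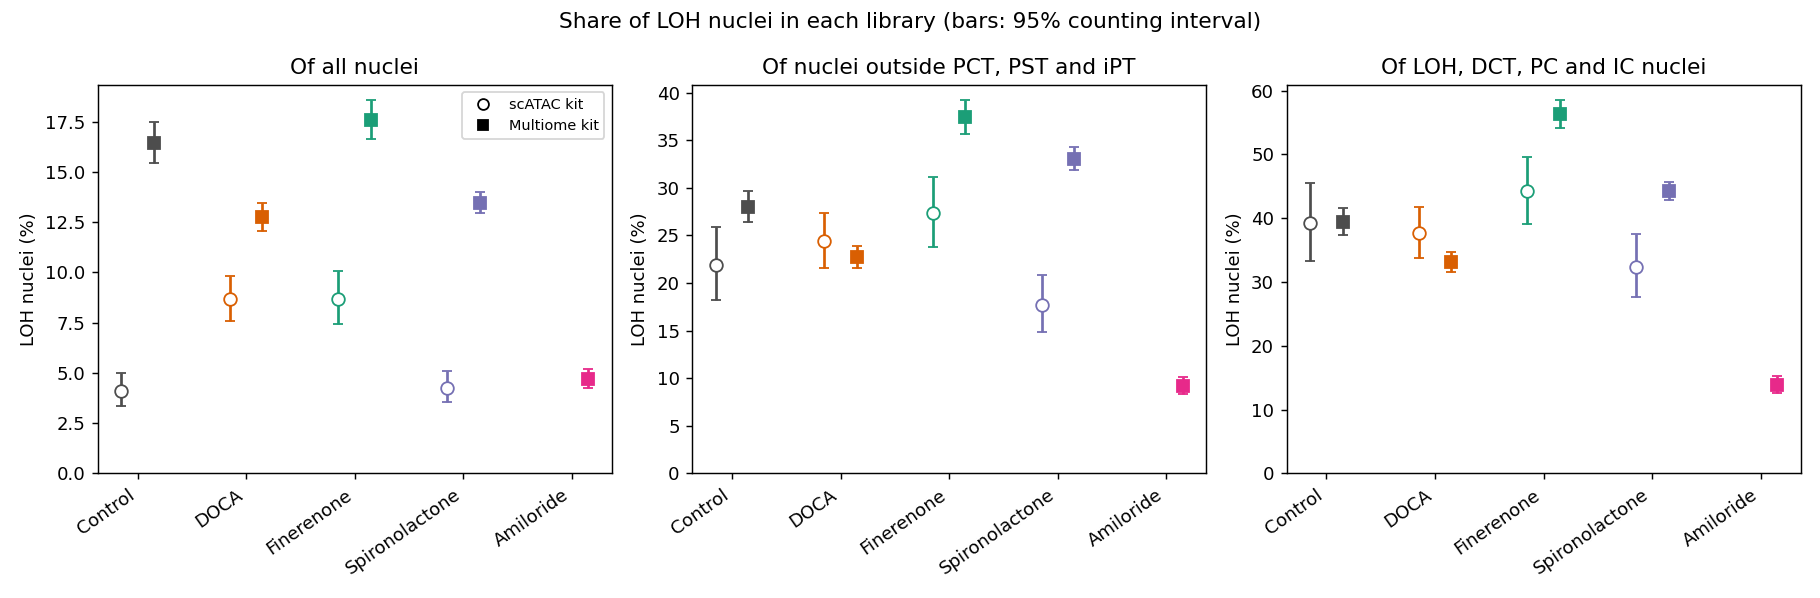
Share of LOH nuclei in each of the 9 libraries (points, with exact 95% intervals for counting error), as a percent of all nuclei, of nuclei outside PCT, PST and iPT, and of LOH, DCT, PC and IC nuclei. Open circles are scATAC and filled squares Multiome libraries, and the Amiloride library is the lowest point of the middle and right panels, at 9.22% and 13.9%.

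Outside the proximal tubule, LOH shares were 21.9% and 28.0% in the Control scATAC and Multiome libraries. DOCA libraries had 24.4% and 22.7%, Finerenone libraries 27.3% and 37.5%, and Spironolactone libraries 17.7% and 33.1%. The Amiloride library had 9.22% (387 of 4199, exact 95% interval 8.36 to 10.1) and lay below every other library. The ranges of Control, DOCA and Spironolactone overlapped, and both Finerenone libraries were above both DOCA libraries.

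Among distal nephron nuclei, the Control libraries gave the closest pair of values, 39.3% in scATAC (101 of 257) and 39.4% in Multiome (838 of 2125). DOCA libraries had 37.7% (214 of 568) and 33.1% (1167 of 3528), both below both Control libraries. Finerenone libraries had 44.3% (158 of 357) and 56.3% (1079 of 1915), above every Control and DOCA library. In Spironolactone LOH took 32.4% (116 of 358) and 44.3% (2053 of 4636), a range that spanned those of Control and DOCA. The Amiloride library had 13.9% (387 of 2790, exact 95% interval 12.6 to 15.2), again the lowest of the 9 libraries.

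Set directly against its neighbours along the nephron, LOH outnumbered DCT, PC and IC in the other 8 libraries and was outnumbered by each of them in Amiloride. There were 1.98 and 1.80 LOH nuclei per DCT nucleus in Control scATAC and Multiome, 1.26 and 1.12 in DOCA, 1.86 and 4.04 in Finerenone, 1.05 and 1.93 in Spironolactone and 0.398 in Amiloride. Both DOCA ratios were below both Control ratios, and the Finerenone Multiome ratio was the highest. Per PC nucleus, the ratios were 2.20 and 2.53 in Control, 1.41 and 1.35 in DOCA, 2.05 and 3.71 in Finerenone, 1.55 and 2.72 in Spironolactone and 0.484 in Amiloride. The order of the libraries was thus much the same with PC as with DCT. The ratio to IC behaved otherwise, with 1.71 in both Control libraries and 6.69 and 2.54 in DOCA. It was 4.27 and 3.88 in Finerenone, 2.04 and 2.69 in Spironolactone and 0.612 in Amiloride. IC took 23.0% and 23.1% of distal nephron nuclei in Control but 5.63% and 13.0% in DOCA, so the LOH share of the distal nephron also depended on a label that moved beside it.

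DOCA against Control asked how LOH changed with DOCA, uninephrectomy and salt water together, which this contrast cannot separate. No change in the LOH share passed the test on any of the 3 denominators. The log2 odds of LOH differed by 0.36 (SE 0.56, 95% interval -0.79 to 1.50, adjusted p = 0.532, limma) among all nuclei, where 25% of the 12 labels passed. They differed by -0.10 (SE 0.45, -1.03 to 0.82, adjusted p = 0.924, limma) outside the proximal tubule, where 44.4% of 9 labels passed. Among distal nephron nuclei the difference was -0.25 (SE 0.35, -1.02 to 0.52, adjusted p = 0.496, limma). Of the 4 distal labels 25% passed there, and the label that passed was IC, which fell by 1.65 on the log2 odds scale (SE 0.36, adjusted p = 0.00248, limma). The intervals left differences in either direction possible on each denominator. The sign depended on the kit: among all nuclei DOCA minus Control was 1.14 in scATAC and -0.43 in Multiome libraries, and without the Control or the DOCA scATAC library the fitted difference was -0.14 or -0.19. Without the DOCA Multiome library the signs also turned outside the proximal tubule (0.35) and in the distal nephron (0.14).

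Finerenone against DOCA gave a higher LOH estimate on each denominator, at the edge of the threshold in the distal nephron. In the distal nephron the log2 odds of LOH were 0.89 higher (SE 0.35, 95% interval 0.12 to 1.66, unadjusted p = 0.0276, adjusted p = 0.0552, limma), by 0.39 within scATAC and 1.38 within Multiome libraries. By the adjusted p 0% of the 4 labels passed, while 2 of them, LOH and DCT, had an unadjusted p under 0.05. DCT stood 0.91 lower (SE 0.35, adjusted p = 0.0552, limma), and labels within the same total are not independent. DCT was lower on the wider denominators too, by 1.04 among all nuclei and 0.89 outside the proximal tubule. PC was lower there by 0.81 and 0.64, and none of these passed (adjusted p = 0.131 to 0.271, limma). Whether the LOH difference comes from LOH or from the other labels was not tested. The LOH difference passed with adjusted p = 0.0322 on the arcsine square root scale, with 0.0373 when IC was left out of the denominator, and with 0.0291 without the DOCA scATAC library, where it was 1.27 (limma). It did not pass with DCT left out of the denominator (0.68, adjusted p = 0.134), after thinning the libraries to equal nuclei (adjusted p = 0.0903) or in a fit of these groups alone (adjusted p = 0.185, limma). Leaving out the DOCA Multiome library gave 0.50 (adjusted p = 0.204), and leaving out that of Finerenone gave 0.61 (adjusted p = 0.324, limma). Outside the proximal tubule the difference was 0.63 (SE 0.45, -0.30 to 1.55, adjusted p = 0.263, limma), with 33.3% of labels passing. Of all nuclei it was 0.28 (SE 0.56, -0.87 to 1.42, adjusted p = 0.729, limma), with 16.7% passing, and it was -0.27 without the DOCA Multiome library.

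For Spironolactone against DOCA, no label passed by the adjusted p on any denominator (0%), with 3 labels under an unadjusted p of 0.05 among all nuclei, 2 outside the proximal tubule and 1, IC, in the distal nephron. The LOH difference was -0.50 among all nuclei (SE 0.56, 95% interval -1.64 to 0.64, adjusted p = 0.589, limma). It was 0.085 outside the proximal tubule (SE 0.45, -0.84 to 1.01, adjusted p = 0.852, limma) and 0.18 in the distal nephron (SE 0.35, -0.60 to 0.95, adjusted p = 0.628, limma). The kits disagreed in sign on every denominator, with -1.09 in scATAC and 0.090 in Multiome among all nuclei, -0.58 and 0.75 outside the proximal tubule, and -0.33 and 0.69 in the distal nephron. Which library was left out set the sign as well. Without the DOCA scATAC library the difference among all nuclei was 0.048. Without the DOCA Multiome library it was -0.37 outside the proximal tubule and -0.21 in the distal nephron, and without the Spironolactone Multiome library -0.34 and -0.12.

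For Amiloride against DOCA, LOH passed the limma threshold on all 3 denominators, with fewer LOH nuclei in the Amiloride library. Amiloride was a single library, so these p values take its spread from the other groups, and a feature of that library cannot be told apart from the drug. The permutation over all 5 groups, which borrows no spread from other labels and is given further on, gave no p under 0.05 on any denominator, before or after adjustment. It compares the 5 groups together and does not test this contrast. The log2 odds of LOH fell by 1.98 among all nuclei (SE 0.72, 95% interval -3.44 to -0.52, adjusted p = 0.0278, limma), where 33.3% of labels passed. They fell by 1.87 outside the proximal tubule (SE 0.57, -3.05 to -0.70, adjusted p = 0.00888, limma), where 44.4% passed. In the distal nephron they fell by 1.90 (SE 0.45, -2.89 to -0.92, adjusted p = 0.00479, limma), where 50% passed and IC, the other label past the threshold, was higher by 1.38 (SE 0.46, adjusted p = 0.0216, limma). DCT and PC differed there by 0.51 and 0.41 (adjusted p = 0.367 for each, limma). Within the Multiome kit alone, where the libraries can be set side by side without the kit term, Amiloride minus DOCA was -1.57, -1.53 and -1.62 on the 3 denominators.

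The Amiloride calls differed in how far they rested on particular libraries and settings. Among all nuclei the call was lost without the DOCA scATAC library (-1.57, adjusted p = 0.276), without the DOCA Multiome library (-2.66, adjusted p = 0.123) and without either Spironolactone library (-1.92, adjusted p = 0.0726). It was also lost there without a kit term (-1.26, adjusted p = 0.243) and after thinning the libraries to equal nuclei (-2.01, adjusted p = 0.0588, limma). Outside the proximal tubule it was lost without a kit term (-1.60, adjusted p = 0.0826) or with the DOCA scATAC library left out (-1.53, adjusted p = 0.0795, limma). In the distal nephron the difference ran from -2.39 to -1.62 without each of the other 8 libraries in turn. Each of these fits keeps the only Amiloride library, so they cannot show whether the difference belongs to that library or to the drug. Against Control, a contrast chosen after its values were seen and given with no test, the Amiloride differences were -1.62, -1.98 and -2.15 on the 3 denominators.

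**Figure D2:**
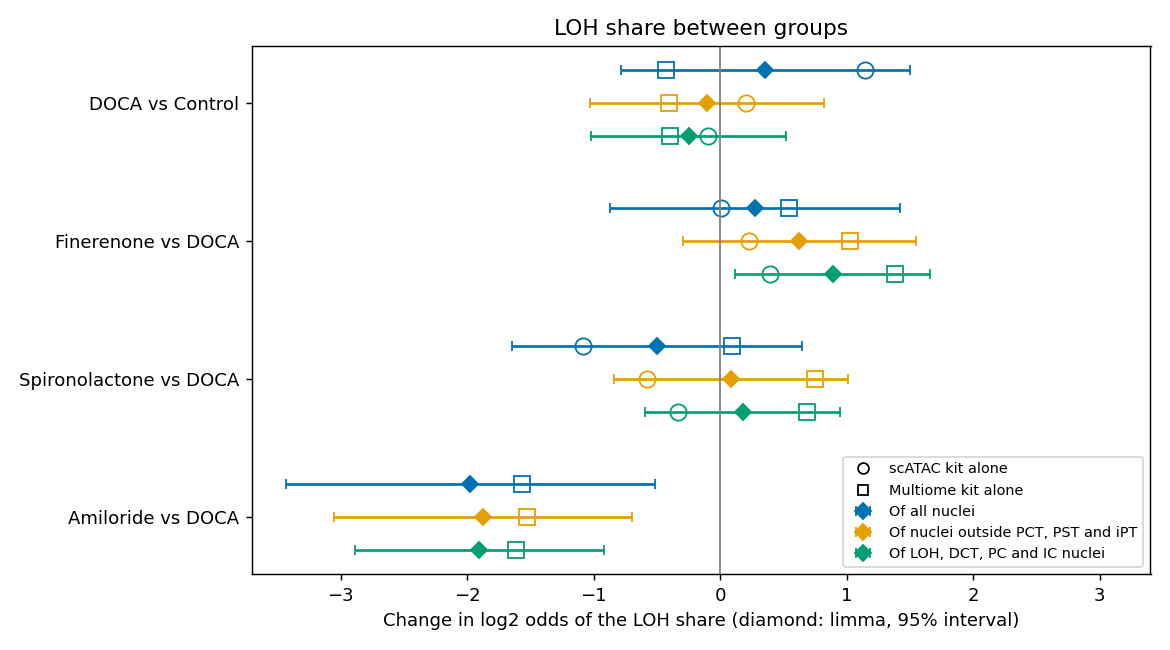
Change in the log2 odds of the LOH share for each treatment contrast (x axis), with limma estimates over 9 libraries as diamonds and their 95% intervals as bars, and differences within the scATAC (circles) and Multiome (squares) kit. Colours give the denominator, and the 3 Amiloride intervals alone lie below 0, while the distal nephron interval of Finerenone lies above 0 (0.12 to 1.66).

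A test that borrows no spread from other labels reassigned groups to libraries inside each kit and compared the F ratio of the group term, kit being fitted first. For the LOH share of the distal nephron, 144 of the 2880 assignments gave an F as large as the observed 9.44 (exact permutation p = 0.05, two-sided). For nuclei outside the proximal tubule the F was 6.53 (exact permutation p = 0.1), and for all nuclei 3.57 (exact permutation p = 0.225). The smallest p this design allows is 0.00833. Adjusted over the 5 permutation tests run, which include the 2 map measures given further on, these values were 0.25, 0.25 and 0.323. Without the Amiloride library the exact permutation p was 0.25 in the distal nephron, 0.5 outside the proximal tubule and 0.458 among all nuclei. Without the Spironolactone Multiome library the distal nephron value was 0.0312, unadjusted.

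On the UMAP, 92.7% of LOH nuclei (5664 of 6113) formed a main island, when nuclei less than 0.5 map units apart were linked. A second island of 276 LOH nuclei (4.51%) lay inside the territory of PST, the straight proximal tubule, and 173 (2.83%) were scattered over the map. Linking at 0.3 or 0.8 gave 272 or 285 nuclei in the second island. Labels and map were made from the same accessibility data, so islands and the positions of labels relative to each other are a description with no test. Tests on the map compare libraries only, in the distance from the LOH centre and the share of neighbours with another label. UMAP distances have no physical unit.

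**Figure D3:**
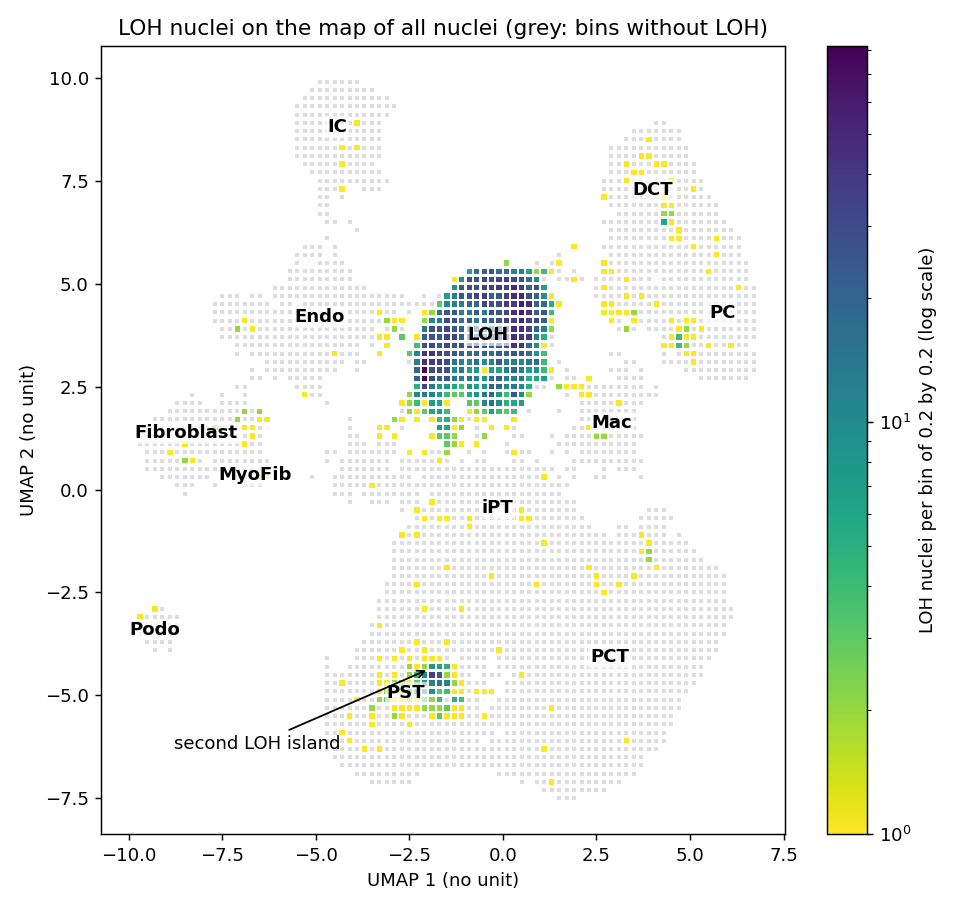
Number of LOH nuclei (colour, log scale) in map bins of 0.2 by 0.2 over all 53298 nuclei, with bins that held no LOH nucleus in grey and the name of each label at the median position of its nuclei. The main island stands apart from DCT, PC and IC, while the second island of 276 LOH nuclei lies within the PST territory.

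LOH was of middling purity among the labels. Of the 15 nearest neighbours of each LOH nucleus, 91.9% were LOH on average and 8.11% had another label, which ranked LOH 7 of 12 from the least pure. The corresponding values were 10.5% for DCT, 11.4% for PC and 5.03% for IC. Among the neighbours of LOH nuclei with another label, PST made up 40.7%, PCT 18.1%, DCT 11.1%, iPT 7.14%, PC 6.57% and endothelial cells (Endo) 6.01%. PST took that place through the second island, where 46.8% of all neighbours were PST. In the main island PCT and PST were 1.03% and 0.899% of all neighbours. PCT and PST are also the most frequent labels of the series, with 26.8% and 18.4% of all nuclei. PCT thus stood below its share of all nuclei, while PST and DCT (7.93% of all nuclei) stood above theirs. PC (6.36%) and Endo (6.04%) lay close to theirs. The totals are unlike, since shares of all nuclei count LOH as well.

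For 362 LOH nuclei (5.92%), most of the 15 neighbours had another label. PST was the most frequent other neighbour for 159 of these, PC and DCT for 40 each and PCT for 33. In the other direction, 239 nuclei with another label lay mostly among LOH nuclei, of which 91 were PST and 76 PCT. They were 0.930% of PST and 0.532% of PCT nuclei.

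The border with other labels was not found to differ by group. The share of neighbours with another label was 12.3% and 4.84% in the Control scATAC and Multiome libraries. DOCA libraries had 6.85% and 7.38%, Finerenone libraries 8.44% and 9.08%, Spironolactone libraries 10.5% and 8.56% and Amiloride 11.1%. The Control pair spanned the values of all other libraries (F 0.583, exact permutation p = 0.667, adjusted p = 0.667 over the 5 tests). The median distance of a nucleus from the LOH centre was 1.19 and 1.13 map units in Control, 1.44 and 1.35 in DOCA, 1.39 and 1.18 in Finerenone, 1.16 and 1.28 in Spironolactone and 1.33 in Amiloride. Both DOCA values were above both Control values (F 1.90, exact permutation p = 0.258 over all groups, adjusted p = 0.323).

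Libraries differed widely in how many of their LOH nuclei lay in the second island. It held 22.5% of the LOH nuclei of the Amiloride library (87 of 387, exact 95% interval 18.4 to 27.0). In Control it held 11.9% (12 of 101) in scATAC and 1.67% (14 of 838) in Multiome. In DOCA it held 0.467% (1 of 214) and 0.514% (6 of 1167), the lowest values of any library. Finerenone had 1.90% (3 of 158) and 5.93% (64 of 1079), and Spironolactone 5.17% (6 of 116) and 4.04% (83 of 2053). The Amiloride library supplied 31.5% of the island but 6.33% of all LOH nuclei. Among the 15 neighbours of the nuclei in this island, 48.3% were LOH and 46.8% PST.

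Labels in the area of the second island differed by library as well. A circle around its centre with a radius of 0.712 map units held 528 nuclei, of which 302 were PST and 207 LOH. In the Amiloride library 84 of its 89 nuclei in the circle were labelled LOH (94.4%). In the Finerenone Multiome library 52 of 104 were (50%), in Control Multiome 11 of 41 (26.8%), in Spironolactone Multiome 47 of 178 (26.4%) and in DOCA Multiome 1 of 15 (6.67%). In the scATAC libraries LOH took 7 of 46 nuclei in Control, 1 of 5 in DOCA, 2 of 19 in Finerenone and 2 of 31 in Spironolactone. The share of a library's nuclei that fell in the circle was 1.08% for Amiloride, inside the range of all libraries (0.164% to 1.87%). The circle was drawn around LOH nuclei after the map was seen, and these values carry no test.

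Counting the main island alone, an alternative chosen after the map was seen, the Amiloride difference from DOCA was larger on all 3 denominators. It was -2.37 among all nuclei, -2.27 outside the proximal tubule and -2.30 in the distal nephron, given as a description with no test. Since the second island held 22.5% of Amiloride but 0.467% and 0.514% of DOCA LOH nuclei, leaving it out could only widen this difference. The distal nephron difference of Finerenone from DOCA was 0.85 by this count.

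**Figure D4:**
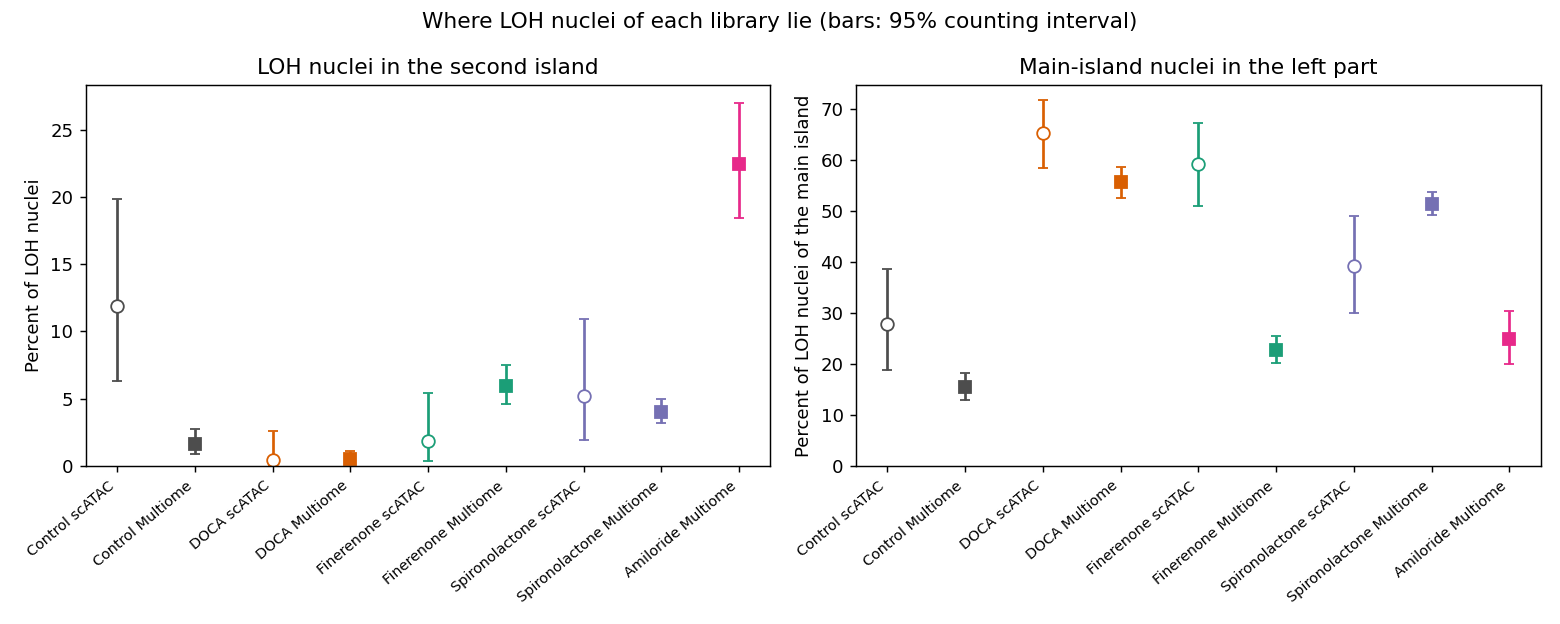
Percent of the LOH nuclei of each library in the second island (left) and percent of its main-island nuclei in the left part of that island (right), with exact 95% intervals for counting error. Open circles are scATAC and filled squares Multiome libraries. Amiloride is highest in the left panel (22.5%), and both DOCA libraries are above both Control libraries in the right one (55.7% and 65.4% against 15.5% and 27.9%).

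Within the main island, Control and DOCA nuclei differed in where most of them lay. The island was split in 2 by k-means on the map coordinates after it had been seen, into a left part of 2322 nuclei (41.0%) and a right part of 3342. Left nuclei were 27.9% and 15.5% of the main island in the Control scATAC and Multiome libraries and 65.4% and 55.7% in DOCA. Finerenone libraries lay apart, with 59.3% in scATAC and 22.8% in Multiome. Spironolactone had 39.3% and 51.5%, and Amiloride 24.9%. The means were 21.7% ± 8.78 for Control, 60.5% ± 6.86 for DOCA, 41.1% ± 25.8 for Finerenone and 45.4% ± 8.64 for Spironolactone (SD, n = 2 each). The Control and DOCA ranges did not overlap, and both Spironolactone libraries lay between them. The split was chosen on these values, so no test is given. A straight line at -1 on the first map axis gave the same separation, with 19.8% and 17.3% of Control nuclei to its left, 60.5% and 50.8% of DOCA nuclei, 50.7% and 19.0% in Finerenone, 28.0% and 32.7% in Spironolactone and 25.6% in Amiloride.

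**Figure D5:**
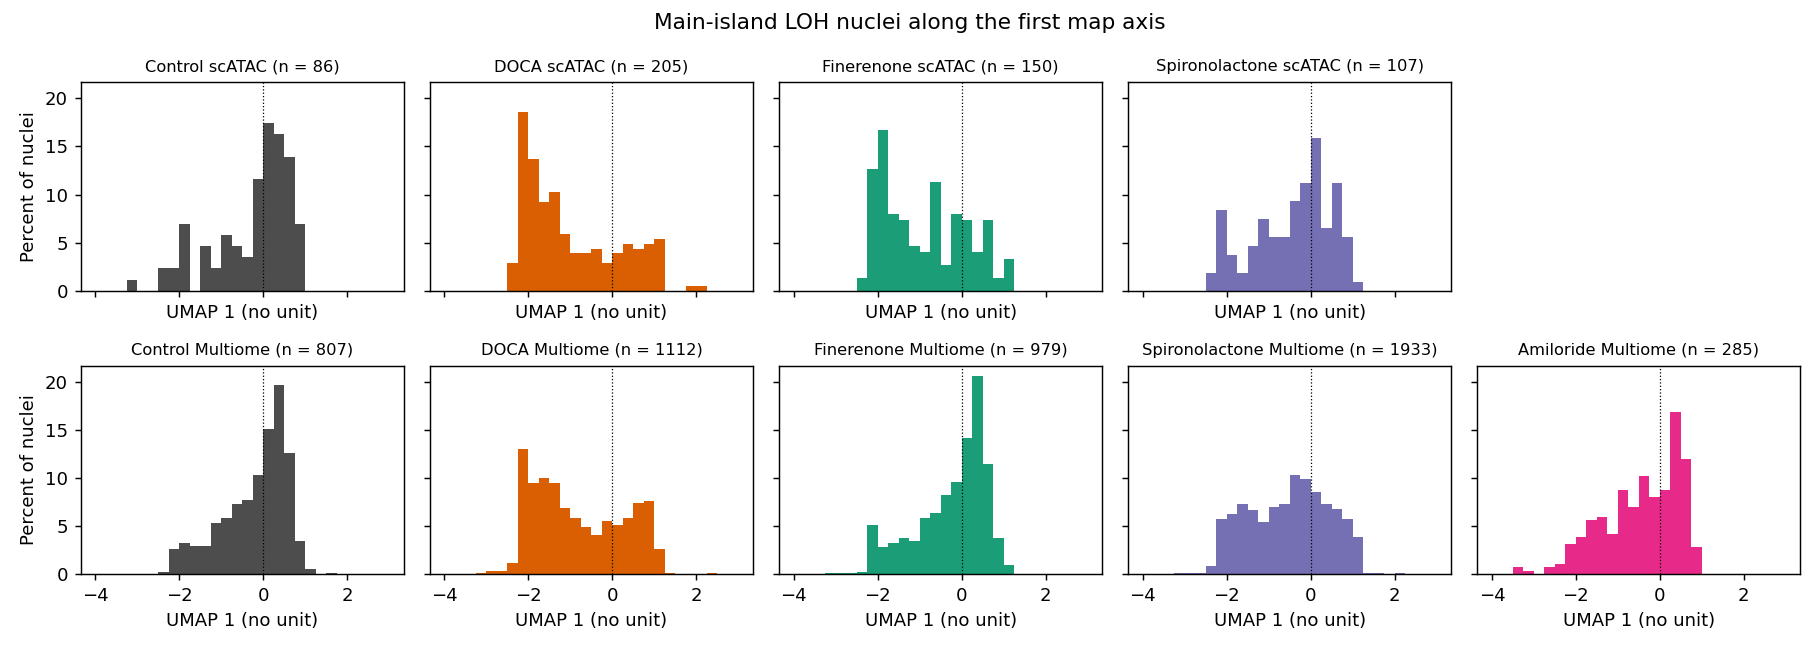
Distribution of main-island LOH nuclei along the first UMAP axis (no unit, bins of 0.25) in each library, as percent of the library's main-island nuclei, with n in each title and a dotted line at 0. Both DOCA libraries have their highest bins on the left and both Control libraries theirs at or just right of 0, while the Finerenone scATAC library resembles DOCA and the Finerenone Multiome library resembles Control.

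The 2 parts of the island were also counted per 100 nuclei labelled DCT, PC or IC of the same library. Left nuclei numbered 15.4 and 9.71 per 100 in Control scATAC and Multiome and 37.9 and 26.2 in DOCA. Right nuclei numbered 39.7 and 53.0 in Control and 20.1 and 20.9 in DOCA. DOCA libraries thus had more left and fewer right nuclei than Control libraries by this measure, in both kits. As a share of all nuclei, left nuclei were also more frequent in DOCA (5.42% and 6.77%) than in Control (0.978% and 2.45%). The right part depended on the denominator, with 2.53% and 13.4% of all nuclei in Control and 2.87% and 5.39% in DOCA, which is lower in Multiome alone. Per 100 of those nuclei, Finerenone had 44.7 and 26.7 left nuclei, as high as DOCA or higher within each kit, with 30.7 and 90.4 on the right. In Spironolactone there were 17.4 and 38.5 on the left and 26.9 and 36.3 on the right. Amiloride had 2.95 on the left and 8.91 on the right, below every other library in both parts on this scale, while its 2.60% of all nuclei on the right was not the lowest. DCT, PC and IC together took 6.35% and 25.3% of all nuclei in Control and 14.3% and 25.8% in DOCA, so the values per 100 nuclei move with that total.

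Of the neighbours of left and right nuclei, 94.9% and 97.9% were LOH. PST was the first other label on the left (1.81%) and PCT on the right (0.958%). Which genes differed in accessibility between the parts was not analysed here.

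LOH nuclei of DOCA libraries had more neighbours from the other DOCA library than a random LOH nucleus would. Libraries were compared by the share of LOH neighbours from the same group but the other library, divided by that library's share of the remaining LOH nuclei. This ratio was 1.50 and 1.52 in the DOCA scATAC and Multiome libraries and 1.19 and 1.18 in Control. It was 0.834 and 0.841 in Finerenone and 1.03 and 1.00 in Spironolactone. Neighbours from the same library stay in the base of this ratio, so an excess of them lowers it. A ratio below 1 therefore need not mean less mixing with the other library. Neighbours from the same library were above their share in 8 of 9 libraries, by ratios from 1.29 to 3.60, and the highest was that of Amiloride. The exception was Spironolactone scATAC, with 0.855. The codes of both DOCA libraries share a stem, as do those of both Spironolactone libraries, and whether a stem marks a shared kidney is not stated. Its part in these ratios was not tested.

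Barcodes were checked for nuclei counted in more than 1 library. Of the LOH nuclei, 337 (5.51%) had a barcode that also occurred in another library. Among Multiome libraries, which shared 53 to 244 barcodes a pair, 318 of the 1328 shared barcodes were LOH in at least 1 library and 22 were LOH in both, where the product of the LOH shares gives 20.9. Among scATAC libraries, 7 of 59 shared barcodes were LOH in 1 library and 0 in both. LOH labels thus coincided on shared barcodes about as often as labels drawn independently would.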

How the data were processed

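Nuclei from whole rat kidneys were profiled by snATAC-Seq with a scATAC or a Multiome kit. Per the submitters' processing notes and the methods of the study, the authors processed reads with Cell Ranger ATAC 1.1.0 against rn6 and filtered and merged nuclei in Signac 1.3.0. They corrected batches with Harmony and named clusters from accessibility at marker genes. Those steps bear on every share. The batch correction also bears on where the nuclei of each library lie on the map. UMAP positions, as deposited, are a score without a unit. Labels, groups and library codes are names. Peak counts and quality measures were not analysed here. The supplement of the study counts its merged data sets differently from the 9 libraries here.

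Kit and library code were matched through shared barcodes: kits use different barcode lists, and the single Amiloride sample marks the Multiome set. The codes of the Control Multiome and Amiloride libraries share a stem. The Amiloride code alone carries the tag New, while all other codes carry Old. What the tag stands for is not stated, so a difference tied to it cannot be told apart from Amiloride. Libraries, not nuclei, were the replicates, as the labels list separate samples. No further filter or doublet caller was applied.

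The log2 of (LOH count + 0.5)/(rest + 0.5) was fitted with limma 3.58.1 (R 4.3.3) over 9 libraries and every label of a denominator, with group and kit as terms and Benjamini-Hochberg adjustment over labels. Shared SDs of 0.564, 0.450 and 0.342 to 0.360 rested on 36, 27 and 12 degrees of freedom. Labels are not independent, so these are too many and the p values too small. Shares carry exact Clopper-Pearson 95% intervals for counting error only. Permutations were exact. Neighbours used scikit-learn 1.9.0, with Python 3.11.15, numpy 2.4.6, pandas 2.3.3, scipy 1.17.1 and matplotlib 3.10.9. The chi-square test that the study names for frequencies was not used, since nuclei are not replicates. The steps were tested on simulated data. By rule the text names LOH, DCT, PC, IC and each label with at least 5% of the other-label neighbours. Members, lists and denominators were chosen with earlier results of these data known.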

Additional observations from a re-analysis of the deposited data

Results flagged for a closer look

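In 5 of the comparisons of DOCA with Control and of a drug with DOCA, the LOH share moved in opposite directions in the scATAC and the Multiome libraries, given here as differences in log2 odds. Each kit had 1 library per group, and the difference between kits was not tested. DOCA minus Control was 1.14 in scATAC and -0.43 in Multiome among all nuclei, and 0.20 and -0.41 among nuclei outside the proximal tubule. Spironolactone minus DOCA was -1.09 and 0.090 among all nuclei, -0.58 and 0.75 outside the proximal tubule, and -0.33 and 0.69 among distal nephron nuclei.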

How the results depend on the processing

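The alternatives were another offset, an arcsine scale, no kit term, thinning to equal nuclei, only the groups compared, DCT or IC left out of the distal nephron, a centred log-ratio, a trended and robust variance, other neighbour numbers, centres and averages on the map, the main island alone (chosen after seeing the data) and each library left out. Beside leaving out a library and counting the main island alone, 96 of 103 values kept their direction and side of the threshold, and 158 of 177 did so with a library left out. Amiloride against DOCA no longer passed without a kit term among all nuclei (-1.26) and outside the proximal tubule (-1.60), or when all libraries were thinned to equal nuclei, among all nuclei (-2.01). In the distal nephron it passed under each of these. Finerenone against DOCA passed in the distal nephron on the arcsine scale (0.15, in radians) and without IC in the denominator (1.104). Spironolactone against DOCA outside the proximal tubule turned to -0.083 after thinning, and DOCA against Control in the distal nephron turned to 0.032 without DCT in the denominator. A fit of only the groups compared could not be run for Amiloride against DOCA, which leaves no residual degrees of freedom. The cause of each change was not tested.

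With each library left out in turn, log2 odds among all nuclei ran from -0.19 to 0.90 for DOCA against Control, -0.27 to 0.82 for Finerenone, -1.05 to 0.048 for Spironolactone and -2.66 to -1.57 for Amiloride against DOCA, and 1.20 to 1.72 for the kit. The kit call was lost without either Spironolactone library (1.33, adjusted p = 0.0588, limma). Outside the proximal tubule the first 4 ran from -0.56 to 0.35, 0.17 to 1.08, -0.37 to 0.54 and -2.45 to -1.53, and in the distal nephron from -0.63 to 0.14, 0.50 to 1.27, -0.21 to 0.56 and -2.39 to -1.62. The permutation p of the distal nephron share ran from 0.0312 to 0.25. The fewest LOH nuclei in a library were 101, which widens the counting intervals of the shares within islands.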
